A study of Mus musculus with 24 samples.

Results

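The unfolded protein response and the integrated stress response were followed through 37 genes in organoids grown from mouse salivary glands after irradiation (IR) or sham irradiation. The genes were given as a list of symbols and were found by Ensembl identifier in all 24 count files. They were 37 of the 47643 genes in the files, all 37 were among the 10563 genes with enough counts to test, and they held 0.403% to 0.727% of the counts of a library (median 0.540%). Of these, 20 encode chaperones, folding enzymes, degradation factors and translocon proteins of the endoplasmic reticulum (ER), 4 are the stress sensors and Xbp1, and 13 are Atf4, its known targets and feedback genes.

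The organoids came from salivary gland stem/progenitor cells of C57BL/6 mice. They formed 8 groups of 3 libraries, given by 2 times after IR or sham-IR of the gland (14 and 90 days), 2 culture passages (1 and 2) and the treatment. All groups grew in Matrigel with EGF, FGF2, insulin, dexamethasone (a synthetic glucocorticoid) and Y-27632 (a kinase inhibitor), so each comparison is between cultures that all received these additions, and what was measured are cells that had left the irradiated gland. The radiation dose, the number and age of the mice and which replicates shared an animal were not given in the sources used here, and p-values then measure the spread between these samples, which may be technical. RNA was read from the 3' end of transcripts (QuantSeq), so a gene's count does not grow with its length, levels may be compared between genes, and the spliced and unspliced forms of Xbp1 are not told apart. Neither protein nor translation was measured.

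Proteins that fail to fold in the ER draw the chaperone BiP away from the membrane sensors PERK (encoded by Eif2ak3), IRE1 (Ern1) and ATF6. IRE1 splices the Xbp1 message, and XBP1 and the cleaved form of ATF6 raise chaperone, folding and degradation genes. PERK and other kinases that answer to amino acid shortage, double-stranded RNA or haem shortage phosphorylate eIF2, which lowers translation in general but favours that of ATF4, a factor that raises genes of amino acid uptake and synthesis, tRNA charging and, with CHOP, cell death. Acinar cells of the salivary gland secrete large amounts of protein and depend on this machinery.

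Some promoters of both arms carry known elements, and these are shown because XBP1, ATF6 and ATF4 are known to act through them. RefSeq promoter sequences (build GRCm38.p6, 250 bases before to 50 after the start of the gene) were found for 33 of the 37 genes, and none was used for Hyou1, Manf, Atf6 or Slc7a5. The ER stress element, searched on both strands as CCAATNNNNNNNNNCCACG, was in 8 of 18 ER genes, 0 of 3 sensor genes, 0 of 12 genes of the Atf4 family and 37 of 27025 genes with such a promoter (0.137%). Each copy is shown on the strand that reads as the motif, with 9 bases on either side and the match in capitals; its first and last 5 bases are the CCAAT and CCACG parts, the first of which is also a CCAAT box by itself, found in 41.1% of all promoters.
Hspa5 (chr2:34772025-34772043, gene on the + strand): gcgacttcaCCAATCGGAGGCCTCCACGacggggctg
Hsp90b1, near copy (chr10:86705533-86705551, gene on the - strand): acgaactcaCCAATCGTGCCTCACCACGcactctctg
Hsp90b1, far copy (chr10:86705638-86705656, gene on the - strand): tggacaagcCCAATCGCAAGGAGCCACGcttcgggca
Calr (chr8:84847075-84847093, gene on the - strand): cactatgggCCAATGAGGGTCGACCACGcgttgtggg
Canx (chr11:50325800-50325818, gene on the - strand): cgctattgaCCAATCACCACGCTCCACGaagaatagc
Pdia6 (chr12:17266491-17266509, gene on the + strand): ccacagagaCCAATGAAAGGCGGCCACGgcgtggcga
Dnajc3 (chr14:118937827-118937845, gene on the + strand): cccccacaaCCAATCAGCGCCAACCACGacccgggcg
Creld2 (chr15:88819520-88819538, gene on the + strand): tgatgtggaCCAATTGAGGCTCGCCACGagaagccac
Syvn1 (chr19:6046532-6046550, gene on the + strand): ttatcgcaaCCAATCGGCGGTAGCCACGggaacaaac

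The shorter second ER stress element, searched as ATTGG and CCACG with any 1 base between them, was in the promoters of Dnajb11 and Herpud1 and in 0.0444% of all promoters. The C/EBP-ATF response element to which ATF4 binds, searched as TGATGNAA, was in Asns, Chac1 and Trib3, 3 of the 12 promoters of the Atf4 family, in Herpud1, 1 of the 18 ER promoters, and in 4.51% of all promoters. The XBP1 element TGACGTGG was in none of the 33 promoters and in 0.714% of all promoters. The sites of Dnajb11 and Trib3 lay after the start of the gene. A match describes the letters of these windows only.
Dnajb11, second ER stress element (chr16:22857852-22857862, gene on the + strand): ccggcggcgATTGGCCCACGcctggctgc
Herpud1, second ER stress element (chr8:94386377-94386387, gene on the + strand): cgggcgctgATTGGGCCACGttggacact
Herpud1, C/EBP-ATF element (chr8:94386317-94386324, gene on the + strand): ggtgcgggcTGATGCAAcccgccgtg
Asns, C/EBP-ATF element (chr6:7693225-7693232, gene on the - strand): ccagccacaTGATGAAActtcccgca
Chac1, C/EBP-ATF element (chr2:119351049-119351056, gene on the + strand): tggcaggagTGATGCAAcggcaggga
Trib3, C/EBP-ATF element (chr2:152344039-152344046, gene on the - strand): ccgcccggcTGATGTAAacctgagct

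The 250 bases before the start are printed for Hspa5, the standard reporter gene of the pathway, and for Dnajc3, an ER gene that differed between IR and sham, with the ER stress element in capitals. Of the 8 ER genes with this element, only Dnajc3 passed the test of the mean effect of IR given below. That call was lost under 20 of 32 alternative fits.
Hspa5 (chr2:34771840-34772089, + strand): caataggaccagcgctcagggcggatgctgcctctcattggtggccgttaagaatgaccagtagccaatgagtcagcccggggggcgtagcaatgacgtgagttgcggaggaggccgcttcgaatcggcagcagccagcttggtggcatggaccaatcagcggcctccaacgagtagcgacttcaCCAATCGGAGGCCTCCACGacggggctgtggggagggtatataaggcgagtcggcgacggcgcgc
Dnajc3 (chr14:118937682-118937931, + strand): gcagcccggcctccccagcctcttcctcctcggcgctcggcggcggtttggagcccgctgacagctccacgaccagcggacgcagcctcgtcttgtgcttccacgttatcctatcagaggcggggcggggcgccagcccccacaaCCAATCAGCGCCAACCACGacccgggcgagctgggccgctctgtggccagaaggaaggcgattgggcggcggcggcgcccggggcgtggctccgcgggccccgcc

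Libraries held 1151608 to 3189466 counts on genes, and all 9 markers of salivary epithelium had counts in every group. Gm42418, a predicted gene whose locus overlaps ribosomal RNA, took 11.8% to 29.02% of the counts of a library. Its share was higher in most IR libraries at day 90. In passage 1 it was 28.6%, 15.9% and 11.8% in sham and 29.02%, 26.9% and 26.99% in IR, and in passage 2 it was 15.5%, 14.3% and 13.1% in sham and 13.5%, 24.3% and 23.02% in IR. Secretory markers of acinar cells, 5 to 10 of 10 with counts in a group, had lower sums in IR at day 90. They summed to 282 to 334 CPM (gene counts scaled to a common library size) in sham and 34.1 to 193 in IR in passage 1, and to 306 to 1226 in sham and 151 to 267 in IR in passage 2. Most of each sum was Pip, a secreted protein of saliva, with means of 246 CPM in sham and 58.8 in IR in passage 1 and 736 and 162 in passage 2. Amy1, salivary amylase, went the other way on 2 to 8 counts a group (0.68 and 1.60, then 0.23 and 1.03), Aqp5 overlapped in both passages, and the other 7 had means of at most 12.8 CPM at day 90. Among the epithelial markers Trp63, a factor of basal cells, had lower means in IR in all 4 comparisons: 85.7 CPM in sham and 42.2 in IR, 117 and 84.8, 87.9 and 35.04, and 120.5 and 54.5, in the order of day and passage. Krt8, a keratin of luminal cells, was higher in every IR library than in any sham library of the same day and passage, with means of 168 and 217, 44.9 and 105, 116 and 258, and 40.8 and 137. At day 90 the means of Krt18 were 406 and 893 in passage 1 and 179 and 535 in passage 2, those of Krt7 338 and 584, then 118 and 347, and neither gene's groups overlapped. These genes do not stand for the whole list, of which Epcam, Cdh1, Krt5, Krt14 and Krt19 are not given by value. At day 90 Krt8, Krt18 and Krt7 were higher in IR, while the mean sum of all 9 markers was lower in both passages. All 9 epithelial markers summed to means of 7342 CPM in sham and 8274.5 in IR at day 14 passage 1, and 9878 and 7194.5 in passage 2. At day 90 the means were 8271 and 6344 in passage 1 and 8020 and 5492.5 in passage 2. Col3a1 and Pdgfrb of the 7 fibroblast markers and Igkc and Tnfrsf17 of the 5 plasma cell markers were at 0 in all libraries. The fibroblast markers summed to at most 3.85 CPM in a library. The plasma cell markers, 1 to 3 with counts in a group, summed to 140 to 308 CPM. In both IR groups of day 14 only 1 of them had counts. The sum there was that of this gene and does not stand for plasma cells. Fits with the share of Gm42418 as a covariate are given below; the part of the acinar and epithelial markers in the results was not tested. In bulk RNA, fewer cells of a type and less RNA per cell cannot be told apart.

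Transcripts of the large chaperones were abundant, and the ER genes varied less between replicates than the Atf4 family. Canx, Hspa5, Calr and Hsp90b1, which bind and fold new proteins, had median levels of 643, 727, 519 and 470 CPM over the 24 libraries, and Sdf2l1, a partner of ER co-chaperones, had 5.45 CPM. Atf4 itself had a median of 642 CPM, against 21.3 CPM for Trib3, a pseudokinase induced by ATF4, and 6.54 CPM for Chac1, an enzyme that breaks down glutathione. The SD within groups, pooled over the 8 groups on the log2(CPM + 1) scale, had a median of 0.28 over the 20 ER genes, 0.48 over the 13 genes of the Atf4 family and 0.33 over all genes tested. The steadiest was Dnajc3 (0.12), a co-chaperone of BiP that also holds PERK in check, and the most variable was Slc7a5 (0.90), the light chain of a transporter of large amino acids, for which the lowest library held 1 count.

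The question behind the first comparison is whether organoids from irradiated glands differed from those of sham-treated glands over all times and passages. Averaged over the 4 comparisons of IR with sham, 16 of 20 ER genes and all 4 sensor genes had log2 fold changes above 0, and 10 of 13 genes of the Atf4 family had values below 0. Of the 37 genes, 9 passed the test (24.3%), beside 11% of all genes tested. The list was chosen with earlier results of these data known, so such shares, here and below, do not test the list. Among the 20 ER genes 4 were higher in IR (Hyou1, Manf, Dnajb11, Dnajc3) and 1 was lower (Serp1), among the 4 sensor genes Eif2ak3 was higher, and in the Atf4 family Ppp1r15a was higher and Psat1 and Atf4 were lower. The background was 6.09% of genes higher and 4.91% lower. The test was edgeR's quasi-likelihood test on all tested genes with Benjamini-Hochberg adjustment and a threshold of 0.05, with 12 IR and 12 sham libraries. Cultures of the later passage are grown from cells of the earlier passage, so these libraries are not all independent cultures. The fit took them as independent, so standard errors and adjusted p of the mean effect, here and below, may be too small.

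The median log2 fold change was 0.15 in the ER family (16 genes above 0 and 4 below), 0.17 in the sensors (4 above), -0.39 in the Atf4 family (3 above and 10 below) and 0.00 over all genes tested. These family medians describe the list and were not tested. In the order day 14 passage 1, day 14 passage 2, day 90 passage 1 and day 90 passage 2, the ER median was 0.10, -0.00, 0.14 and 0.30, and the Atf4 family median was -0.11, -0.44, -0.65 and -0.19. The ER median was thus near 0 in 1 of the 4 comparisons, and that of the Atf4 family was below 0 in all 4. Higher in all 4 comparisons were 7 of the 37 genes, beside 15.5% of all genes tested: Dnajb11, Dnajc3, Hyou1, Edem1, Syvn1, Eif2ak3 and Ppp1r15a. Lower in all 4 were 9, beside 14.6% of all genes: Pdia4 and Pdia6, which form disulfide bonds, and Atf4, Atf5, Trib3, Asns, Psat1, Shmt2 and Slc7a5.

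**Figure D1:**
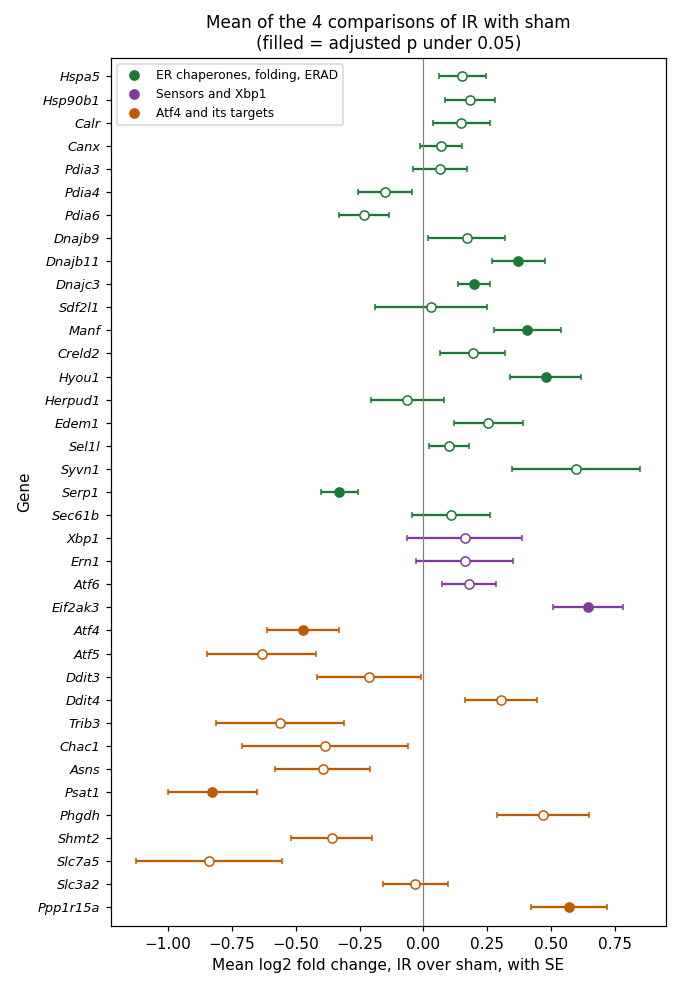
Mean log2 fold change of IR over sham (x axis) for each of the 37 genes (y axis), averaged over the 4 comparisons, with its standard error (SE). Filled points passed the adjusted p of 0.05: Serp1, Psat1 and Atf4 lie below 0 and Eif2ak3, Ppp1r15a, Dnajb11, Dnajc3, Hyou1 and Manf above it, and 10 of the 13 genes of the Atf4 family lie below 0.

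Among the sensors, Eif2ak3 rose with IR. It encodes PERK, the ER kinase that phosphorylates eIF2. At day 14 the Eif2ak3 levels were 46.6, 43.6 and 35.9 CPM in sham and 71.7, 67.1 and 42.2 in IR in passage 1, and 28.4, 21.9 and 25.4 in sham and 27.5, 41.1 and 23.5 in IR in passage 2. The day 90 levels were 34.4, 49.6 and 29.7 in sham and 43.3, 50.2 and 70.3 in IR in passage 1, and 23.7, 34.05 and 22.9 in sham and 44.9, 73.95 and 79.5 in IR in passage 2. The groups did not overlap in day 90 passage 2 and overlapped in the other 3 comparisons, and the IR mean was the higher in each. Averaged over the 4 comparisons, its log2 fold change was 0.65 (SE 0.14, adjusted p = 0.00439, edgeR).

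Ppp1r15a, which encodes GADD34, the phosphatase subunit that removes the phosphate PERK adds, rose as well, although it counts as a target of ATF4. Ppp1r15a levels at day 14 were 50.6, 75.1 and 61.6 CPM in sham and 90.4, 102 and 66.6 in IR in passage 1, and 64.2, 73.8 and 74.5 in sham and 58.5, 74.99 and 83.6 in IR in passage 2. Levels at day 90 were 32.7, 28.2 and 21.2 in sham and 70.1, 76.00 and 27.1 in IR in passage 1, and 37.4, 33.1 and 24.04 in sham and 30.95, 58.5 and 64.5 in IR in passage 2. At least 1 library of each pair of groups overlapped the other group, and at day 90 the sham libraries were lower than at day 14. Its mean log2 fold change was 0.57 (SE 0.15, adjusted p = 0.0176, edgeR). Its gene overlaps Tulp2 on the opposite strand, and the strand setting of the counting was not given, so reads of the pair cannot be told apart.

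Atf4 fell with IR. Levels of Atf4 at day 14 were 639, 738 and 481 CPM in sham and 661, 557 and 507 in IR in passage 1, and 609.9, 999.9 and 1042 in sham and 546, 735 and 537 in IR in passage 2. At day 90 they were 428, 992 and 592 in sham and 555, 455 and 280.4 in IR in passage 1, and 1109.5, 1035 and 1535 in sham and 963, 644 and 827 in IR in passage 2. IR and sham libraries overlapped in every comparison except day 90 passage 2, in which all 3 IR libraries were lower. For Atf4 the mean log2 fold change was -0.47 (SE 0.14, adjusted p = 0.0346, edgeR). Psat1, an enzyme of serine synthesis and a target of ATF4, fell by more. At day 14 the Psat1 levels were 95.2, 123 and 84.7 CPM in sham and 55.8, 95.4 and 82.05 in IR in passage 1, and 142, 214 and 185 in sham and 111, 133 and 119 in IR in passage 2. The day 90 levels were 209, 124 and 116 in sham and 72.2, 85.9 and 39.7 in IR in passage 1, and 419, 109 and 215 in sham and 98.8, 127 and 104 in IR in passage 2. The groups did not overlap in day 14 passage 2 and day 90 passage 1, and 1 sham library of day 90 passage 2, at 419 CPM, stood far above the other 2. The mean log2 fold change was -0.83 (SE 0.18, adjusted p = 0.00439, edgeR). Psat1 overlaps the predicted gene Gm3329 on the opposite strand.

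Of the ER genes, Serp1 fell. It encodes a small membrane protein of the translocon that stabilizes new membrane proteins during stress. Serp1 levels at day 14 were 244, 304 and 285 CPM in sham and 265, 273 and 321 in IR in passage 1, and 263, 318 and 304 in sham and 218, 249 and 276 in IR in passage 2. Levels at day 90 were 315, 434 and 444 in sham and 232, 236 and 217 in IR in passage 1, and 393, 392 and 468 in sham and 351, 333 and 326 in IR in passage 2. The day 90 groups did not overlap in either passage, and at day 14 passage 1 the means lay within 1 SD of each other. Averaged over the 4 comparisons, its log2 fold change was -0.33 (SE 0.07, adjusted p = 0.00577, edgeR). Serp1 overlaps Eif2a on the opposite strand.

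Dnajb11 and Dnajc3, both co-chaperones of BiP, rose. Levels of Dnajb11 at day 14 were 26.3, 48.3 and 50.8 CPM in sham and 48.1, 46.3 and 39.9 in IR in passage 1, and 31.3, 34.8 and 37.5 in sham and 45.9, 36.5 and 48.5 in IR in passage 2. At day 90 they were 38.9, 32.03 and 38.5 in sham and 53.6, 50.2 and 47.3 in IR in passage 1, and 24.9, 27.4 and 21.8 in sham and 28.9, 45.5 and 38.1 in IR in passage 2. The day 90 groups did not overlap in either passage, and the day 14 groups did. Its mean log2 fold change was 0.37 (SE 0.10, adjusted p = 0.0225, edgeR). Dnajb11 and Eif2ak3 each overlap a predicted gene on the opposite strand, Gm30505 and Gm43292. At day 14 the Dnajc3 levels were 113, 133 and 144 CPM in sham and 133, 135 and 154 in IR in passage 1, and 109.7, 128 and 112 in sham and 118, 111 and 129 in IR in passage 2. The day 90 levels were 134, 127 and 121 in sham and 153, 149 and 130.1 in IR in passage 1, and 98.2, 108 and 90.9 in sham and 132, 142 and 137 in IR in passage 2. All 3 IR libraries lay above all 3 sham libraries in day 90 passage 2 only among the 4 comparisons. For Dnajc3 the mean log2 fold change was 0.20 (SE 0.06, adjusted p = 0.0441, edgeR), a small change measured in the steadiest of the 37 genes.

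Hyou1, the nucleotide exchange factor of BiP, and Manf, a secreted ER protein that is induced by ER stress, rose too. Hyou1 levels at day 14 were 10.8, 13.4 and 11.3 CPM in sham and 15.9, 13.2 and 15.5 in IR in passage 1, and 9.09, 6.50 and 9.47 in sham and 11.5, 12.6 and 10.9 in IR in passage 2. Levels at day 90 were 6.77, 9.15 and 7.76 in sham and 5.67, 10.6 and 11.1 in IR in passage 1, and 5.99, 7.30 and 6.76 in sham and 8.33, 17.1 and 13.8 in IR in passage 2. The groups did not overlap in either passage 2 comparison. The mean log2 fold change was 0.48 (SE 0.14, adjusted p = 0.0288, edgeR). Levels of Manf at day 14 were 32.4, 55.3 and 71.3 CPM in sham and 46.2, 66.1 and 73.1 in IR in passage 1, and 54.00, 47.2 and 38.8 in sham and 45.3, 32.5 and 56.8 in IR in passage 2. At day 90 they were 51.9, 39.8 and 52.00 in sham and 67.5, 79.3 and 62.6 in IR in passage 1, and 26.7, 34.4 and 21.8 in sham and 39.9, 66.4 and 50.7 in IR in passage 2. The day 90 groups did not overlap in either passage, and the means at day 14 passage 2 were 46.7 in sham and 44.9 in IR. Averaged over the 4 comparisons, its log2 fold change was 0.41 (SE 0.13, adjusted p = 0.0490, edgeR). Manf overlaps Dcaf1 and other genes.

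**Figure D2:**
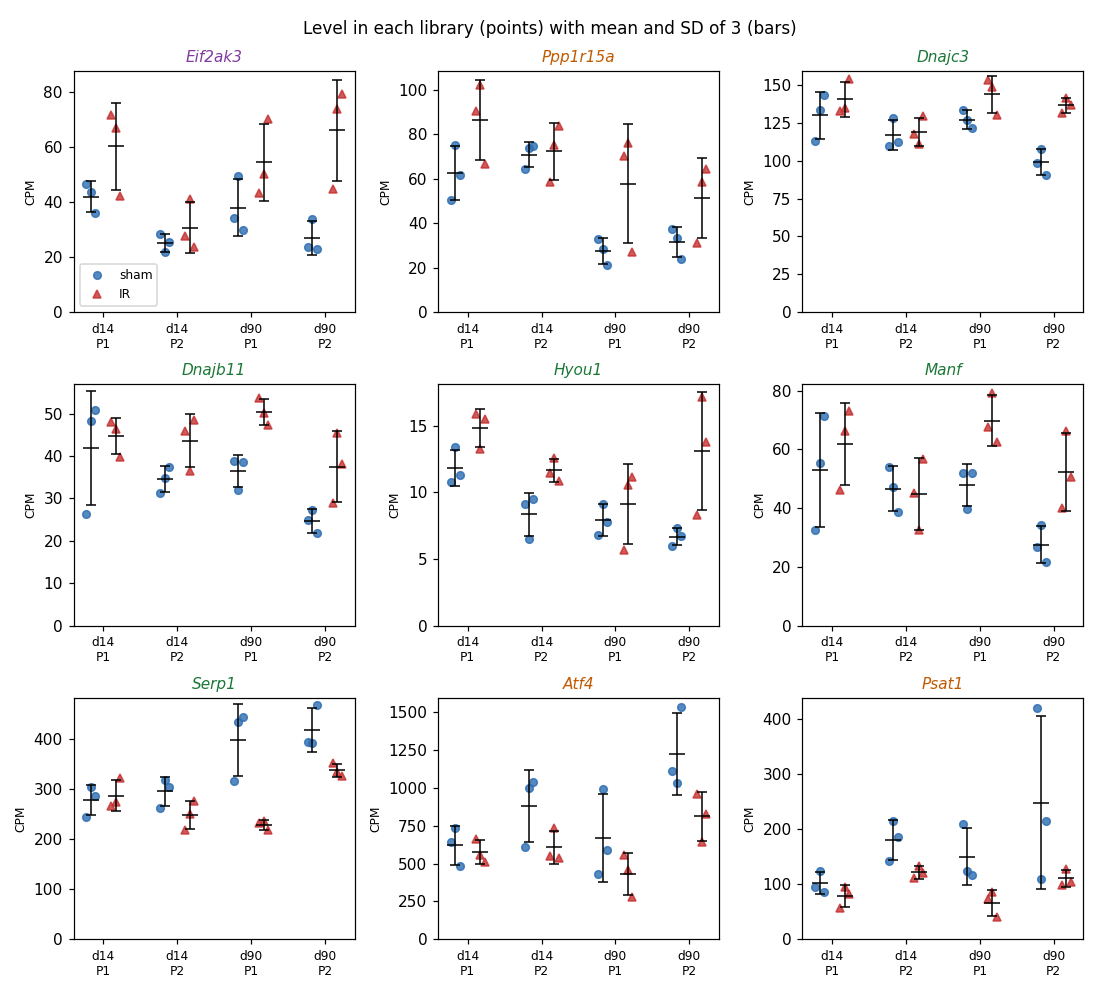
CPM (y axes, from 0) of the 9 genes that passed the test of the mean effect, in each of the 24 libraries, by day and passage (x axes; d14 and d90 for days, P1 and P2 for passages). Blue circles are sham and red triangles IR libraries, with the mean and SD of 3 in black. In day 90 passage 2 the IR libraries of Eif2ak3, Dnajc3, Dnajb11, Hyou1 and Manf all lie above the sham libraries, and those of Serp1 and Atf4 all below.

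Serp1, Eif2ak3 and Psat1 passed under all 32 alternatives, Serp1 with adjusted p up to 0.0283, Eif2ak3 up to 0.0324 and Psat1 up to 0.0118. With the share of Gm42418 as a covariate the other 6 lost their calls (Dnajb11 0.0726, Dnajc3 0.0975, Manf 0.116, Hyou1 0.0999, Atf4 0.175 and Ppp1r15a 0.0818, all adjusted p), and their log2 fold changes were 0.35, 0.19, 0.39, 0.44, -0.36 and 0.48. Hyou1 also lost its call under DESeq2 (adjusted p = 0.0527) and with no filter on low counts (0.103). Dnajc3 lost its call with no filter (0.367) and without the 3 libraries whose Gm42418 share deviated from their group (0.0523), which were IR replicate 3 of day 14 passage 2, sham replicate 1 of day 90 passage 1 and IR replicate 1 of day 90 passage 2. Dnajb11 and Ppp1r15a passed whichever library was left out. In the following, sham 2 stands for sham replicate 2, and so on. Atf4 lost its call without any one of 11 libraries (adjusted p up to 0.0768): sham 2 or IR 2 or 3 of day 14 passage 1, sham 2 or 3 or IR 1 of day 14 passage 2, sham 2 or IR 3 of day 90 passage 1, and sham 3 or IR 2 or 3 of day 90 passage 2. Hyou1 lost its call without any one of 7 (up to 0.0644): sham 1 or IR 1 of day 14 passage 1, sham 2 of day 14 passage 2, IR 2 or 3 of day 90 passage 1, and IR 2 or 3 of day 90 passage 2. Dnajc3 kept its call without any one of 7 libraries and lost it without each of the other 17 (up to 0.0918); the 7 were sham 3 of day 14 passage 1, sham 2 and IR 2 of day 14 passage 2, sham 1 and IR 3 of day 90 passage 1, and sham 2 and IR 1 of day 90 passage 2. Manf kept its call without any one of 6 and lost it without each of the other 18 (up to 0.1003); the 6 were sham 3 and IR 1 of day 14 passage 1, sham 1 and IR 2 of day 14 passage 2, and sham 2 and IR 1 of day 90 passage 2.

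The central chaperones did not pass the test. Hspa5 encodes BiP, which holds the sensors inactive. Hspa5 had 720.4 ± 25.2 and 794 ± 69.4 CPM in sham and IR of day 14 passage 1, 672 ± 50.9 and 656 ± 77.8 in day 14 passage 2, 645 ± 31.7 and 741 ± 230.4 in day 90 passage 1 and 626 ± 134 and 774 ± 58.7 in day 90 passage 2 (mean ± SD, n = 3). Its mean log2 fold change was 0.15 (SE 0.09, adjusted p = 0.318, edgeR). Hsp90b1 encodes GRP94, the ER member of the HSP90 family. Hsp90b1 had 521 ± 59.8 and 495 ± 58.9 CPM in sham and IR of day 14 passage 1, 403 ± 126 and 443 ± 62.2 in day 14 passage 2, 467 ± 108 and 539 ± 91.1 in day 90 passage 1 and 354 ± 36.8 and 485 ± 21.1 in day 90 passage 2 (mean ± SD, n = 3). For Hsp90b1 the mean log2 fold change was 0.18 (SE 0.10, adjusted p = 0.252, edgeR). For Xbp1, whose spliced message encodes the factor behind much of the ER response, the pooled SD within groups was among the widest (0.65). Xbp1 had 65.9 ± 36.1 and 76.8 ± 12.6 CPM in sham and IR of day 14 passage 1, 68.7 ± 27.1 and 89.4 ± 46.7 in day 14 passage 2, 81.8 ± 3.82 and 72.5 ± 30.9 in day 90 passage 1 and 84.8 ± 38.1 and 100.1 ± 53.1 in day 90 passage 2 (mean ± SD, n = 3). The mean log2 fold change was 0.16 (SE 0.22, adjusted p = 0.698, edgeR).

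The genes most used as readouts of ATF4 did not pass in the main edgeR fit either. Of those below, Ddit4 passed under 4 of the 32 alternatives, Trib3 under 3, Phgdh under 1 and Ddit3 and Asns under 0. Ddit3 encodes CHOP, the factor that links long stress to cell death. The gene overlaps Mars and Gm4189 on the opposite strand and another entry named Ddit3 on its own strand. Ddit3 had 23.3 ± 0.983 and 26.6 ± 7.46 CPM in sham and IR of day 14 passage 1, 25.9 ± 10.2 and 18.7 ± 2.19 in day 14 passage 2, 20.8 ± 17.03 and 13.6 ± 4.94 in day 90 passage 1 and 39.8 ± 13.3 and 42.3 ± 5.02 in day 90 passage 2 (mean ± SD, n = 3). Averaged over the 4 comparisons, its log2 fold change was -0.21 (SE 0.20, adjusted p = 0.555, edgeR), and it was 0.000509 without sham replicate 2 of day 90 passage 1, a library with 40.1 CPM beside 7.90 and 14.5 in the other 2. Ddit4 encodes REDD1, an inhibitor of the growth kinase complex mTORC1. Ddit4 had 142 ± 31.4 and 204 ± 33.3 CPM in sham and IR of day 14 passage 1, 117 ± 57.03 and 101 ± 24.3 in day 14 passage 2, 139.8 ± 12.6 and 178 ± 23.7 in day 90 passage 1 and 157 ± 11.9 and 233 ± 89.2 in day 90 passage 2 (mean ± SD, n = 3). Its mean log2 fold change was 0.30 (SE 0.14, adjusted p = 0.174, edgeR).

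Trib3, which dampens the ATF4 response, had its highest level in 1 sham library of day 90 passage 2, at 98.8 CPM. Trib3 had 17.8 ± 7.88 and 15.5 ± 6.90 CPM in sham and IR of day 14 passage 1, 37.2 ± 17.6 and 28.02 ± 17.1 in day 14 passage 2, 28.4 ± 13.1 and 14.3 ± 1.83 in day 90 passage 1 and 64.5 ± 30.5 and 42.9 ± 19.9 in day 90 passage 2 (mean ± SD, n = 3). For Trib3 the mean log2 fold change was -0.56 (SE 0.25, adjusted p = 0.155, edgeR). Asns, which makes asparagine, had 20.6 ± 9.13 and 14.5 ± 3.87 CPM in sham and IR of day 14 passage 1, 31.8 ± 9.09 and 22.99 ± 9.82 in day 14 passage 2, 19.2 ± 5.25 and 14.2 ± 4.78 in day 90 passage 1 and 26.99 ± 6.29 and 23.95 ± 8.43 in day 90 passage 2 (mean ± SD, n = 3). The mean log2 fold change was -0.40 (SE 0.19, adjusted p = 0.181, edgeR). Phgdh, which catalyses the first step of serine synthesis, lay on the other side of 0 from Psat1, the next enzyme of that pathway. Phgdh had 15.1 ± 2.70 and 14.96 ± 5.27 CPM in sham and IR of day 14 passage 1, 10.8 ± 3.25 and 21.4 ± 10.6 in day 14 passage 2, 12.5 ± 1.56 and 12.6 ± 2.31 in day 90 passage 1 and 7.84 ± 2.90 and 14.8 ± 4.19 in day 90 passage 2 (mean ± SD, n = 3). Averaged over the 4 comparisons, its log2 fold change was 0.47 (SE 0.18, adjusted p = 0.0968, edgeR), where that of Psat1 was -0.83. The remaining 20 genes had mean log2 fold changes from -0.84 (Slc7a5) to 0.60 (Syvn1), and none passed (lowest adjusted p 0.0589, for Atf5).

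**Figure D3:**
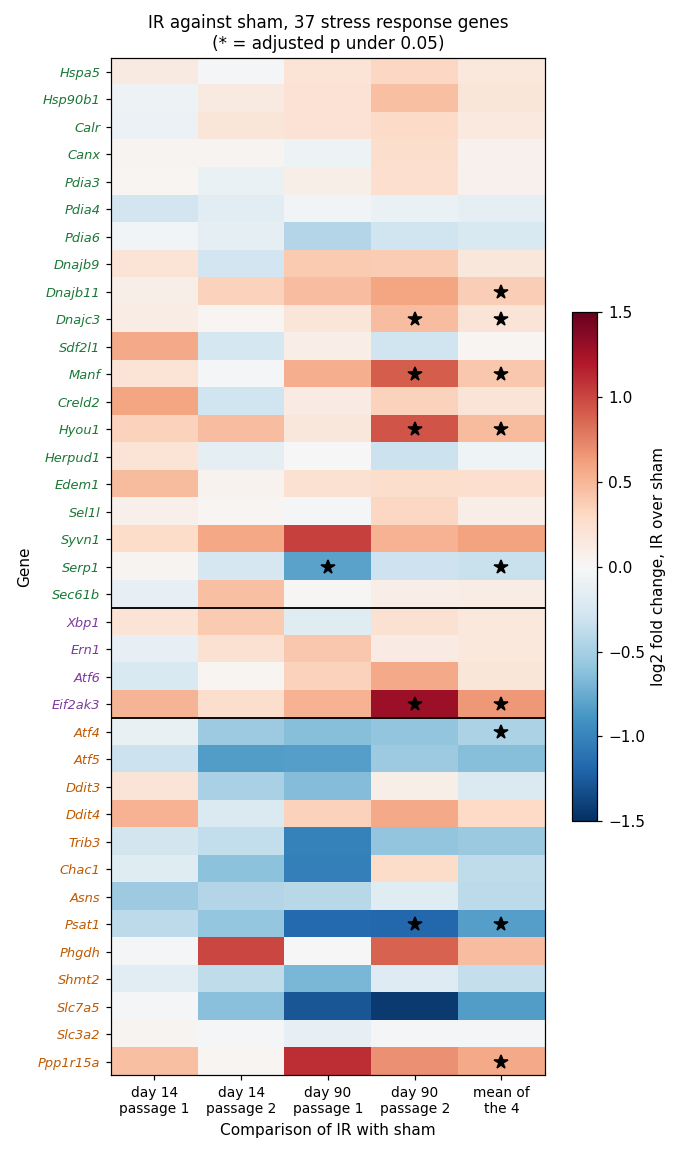
Log2 fold change of IR over sham (colour) for the 37 genes (rows; green names are ER genes, purple the sensors and Xbp1, orange the Atf4 family) in the 4 comparisons and their mean (columns), with a star at an adjusted p under 0.05. The ER rows are mostly pale or red, and most rows of the Atf4 family are blue in day 90 passage 1, where its median was -0.65.

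At day 14 after IR, none of the 37 genes passed the test in passage 1, beside 0.341% of all genes tested. At an unadjusted p under 0.05 there was 1 of the 37, Creld2, beside 11% of all genes, and DESeq2 also called 0. Creld2, an ER protein induced by ER stress, had 11.5, 12.8 and 11.3 CPM in sham and 18.8, 17.01 and 17.8 in IR, and the groups did not overlap. Its log2 fold change was 0.59 (SE 0.26, adjusted p = 0.400, edgeR). Eif2ak3 stood at 0.52 on the log2 scale (SE 0.27, adjusted p = 0.509, edgeR) and Ddit4 at 0.52 (SE 0.28, adjusted p = 0.533, edgeR). Groups that did not overlap were found for 3 of 37 genes, all higher in IR (Creld2, Hspa5 and Sel1l, a scaffold of ER degradation), beside 8.84% of all genes; 0 were lower, beside 8.4%. Beside these values, leukocyte markers (4 of 5 with counts in sham, 3 in IR) summed to 8.10 to 9.24 CPM in sham and 17.3 to 49.05 in IR. Myoepithelial markers (5 of 6 in both) summed to 24.4 to 36.5 in sham and 4.33 to 8.91 in IR. Plasma cell markers (3 of 5 in sham, 1 in IR) summed to 140 to 196 in sham and 212 to 308 in IR. The plasma cell sum in IR was that of 1 gene, so it does not stand for the cell type. The part of these lists in the values was not tested.

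In passage 2 at day 14 none passed either, beside 0.0189% of all genes, and DESeq2 called 0. At an unadjusted p under 0.05 there was 1 gene, Phgdh, beside 6.73% of all genes. Phgdh had 12.5, 7.09 and 12.9 CPM in sham and 21.8, 10.6 and 31.9 in IR, and IR replicate 2 lay among the sham libraries. Its log2 fold change was 1.01 (SE 0.36, adjusted p = 0.596, edgeR). Atf5, a factor related to ATF4, had 74.5, 120.5 and 131 CPM in sham and 49.3, 108 and 28.6 in IR, and the groups overlapped. Its log2 fold change was -0.84 (SE 0.42, adjusted p = 0.760, edgeR). Atf4 stood at -0.55 on the log2 scale (SE 0.28, adjusted p = 0.760, edgeR). Hyou1 was higher in all 3 IR libraries than in all sham libraries and Psat1 lower, 1 of 37 genes in each direction, beside 6.06% and 5.49% of all genes. Leukocyte markers (1 of 5 with counts in sham, 3 in IR) summed to 0.861 to 1.18 CPM in sham and 1.45 to 5.97 in IR, and myoepithelial markers (3 of 6 in sham, 5 in IR) to 14.2 to 17.7 and 1.99 to 9.78; their part in the values was not tested.

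At day 90 in passage 1, Serp1 passed, 1 of 37 genes (2.70%) beside 0.0473% of all genes; it was lower, beside 0.0189% of all genes lower and 0.0284% higher. Its log2 fold change was -0.80 (SE 0.15, adjusted p = 0.0481, edgeR), from the non-overlapping levels given above (sham mean 398, IR mean 228 CPM). It lost its call with the share of Gm42418 as a covariate (log2 fold change -0.55, adjusted p = 0.531), with only the compared groups fitted (adjusted p = 0.0878) and without any library of the 2 groups except sham replicate 1 (adjusted p up to 0.211). Groups that did not overlap were found for 4 genes higher in IR (Dnajb11, Manf, Atf6 and Ddit4), beside 9.21% of all genes, and 4 lower (Serp1, Psat1, Shmt2 and Trib3), beside 10.3%. Psat1, Shmt2, a mitochondrial enzyme that uses serine, and Trib3 are all in the Atf4 family, whose 13 genes had 10 log2 fold changes below 0. Myoepithelial markers (4 of 6 with counts in both) summed to 6.77 to 12.7 CPM in sham and 4.63 to 5.67 in IR, and their part was not tested.

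At day 90 in passage 2, 5 of 37 genes passed (13.5%), beside 4.92% of all genes: Eif2ak3, Hyou1, Manf and Dnajc3 were higher in IR, beside 2.97% of all genes, and Psat1 was lower, beside 1.95%. As the list was chosen with earlier results known, these shares do not test it. For Eif2ak3 the log2 fold change was 1.29 (SE 0.27, adjusted p = 0.00674, edgeR). For Hyou1 the log2 fold change was 0.95 (SE 0.27, adjusted p = 0.0396, edgeR). For Manf the log2 fold change was 0.91 (SE 0.26, adjusted p = 0.0465, edgeR).
Dnajc3 had the smallest of these changes, and its log2 fold change was 0.46 (SE 0.12, adjusted p = 0.0304, edgeR). Psat1 differed through 2 of its 3 sham libraries, at 419 and 215 CPM, while the other, sham replicate 2 at 109, lay within the IR range of 98.8 to 127. Its log2 fold change was -1.17 (SE 0.34, adjusted p = 0.0496, edgeR). Groups that did not overlap were found for 7 genes higher in IR, beside 10.9% of all genes (Eif2ak3, Dnajc3, Hyou1, Manf, Dnajb11, Phgdh and Hsp90b1), and 3 lower, beside 9.64% (Slc7a5, Serp1 and Atf4). Lower acinar marker sums, mostly of Pip, lower Trp63 and higher Krt8, Krt18 and Krt7 stood beside these values. So did a lower mean sum of all 9 epithelial markers and, in 2 of the 3 IR libraries, a higher Gm42418 share.

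IR replicate 1 of that group differed from the other 2 in the genes that rose. Its Eif2ak3 level was 44.9 CPM beside 73.95 and 79.5, its Hyou1 level 8.33 beside 17.1 and 13.8, and its Gm42418 share 13.5% beside 24.3% and 23.02%. Without it 9 genes passed, all higher in IR: the 4 named and Atf6, Ddit4, Dnajb11, Ppp1r15a and Sel1l. Without sham replicate 1, sham replicate 3 or IR replicate 2 only Eif2ak3 passed, and without IR replicate 3 none did (Eif2ak3 adjusted p = 0.0554). Without sham replicate 2, Hyou1 lost its call and 4 genes passed; Psat1 kept its call in no other set with a library left out (adjusted p up to 0.373). With only the compared groups fitted no gene passed, and with the share of Gm42418 as a covariate Eif2ak3 (adjusted p = 0.0433) and Psat1 (adjusted p = 0.0483) did. Hyou1 also lost its call under DESeq2 (adjusted p = 0.0724) and with no filter (0.111), Dnajc3 with no filter (0.264), Manf with RLE size factors (0.0529) and with ribosomal RNA genes removed (0.0528), and Psat1 without the 3 libraries of deviating Gm42418 share (0.0575).

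**Figure D4:**
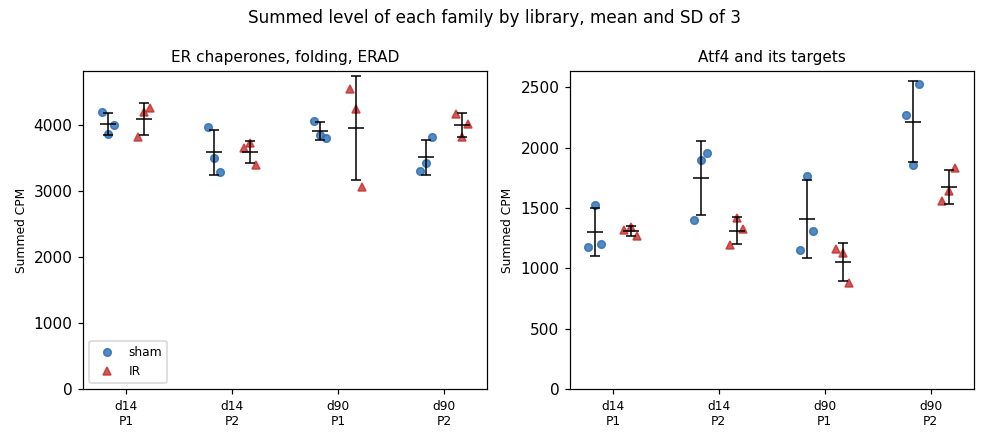
Summed CPM (y axes, from 0) of the 20 ER genes (left) and the 13 genes of the Atf4 family (right) in each library, by day and passage (x axes), with mean and SD of 3; circles are sham and triangles IR. The ER sums stay between 3068 and 4557 CPM, and in day 90 passage 2 all 3 IR sums of the Atf4 family, at 1557 to 1832, lie below the sham sums of 1853 to 2522.

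The summed ER transcripts differed between treatments by less than 1 SD in 3 of the 4 comparisons, and those of the Atf4 family had lower means in IR in 3 of the 4. The ER family summed to 4022 ± 170 CPM in sham and 4097 ± 238 in IR at day 14 passage 1 (mean ± SD, n = 3 here and below), and to 3588 ± 348 and 3597 ± 172 at day 14 passage 2. At day 90 it summed to 3910 ± 138 and 3958 ± 786 in passage 1 and to 3517 ± 268 and 4007 ± 181 in passage 2. The IR library replicate 3 of day 90 passage 1, at 3068, was the lowest of all 24. The Atf4 family, of which Atf4 was the largest part, summed to 1301 ± 196 and 1308 ± 41.1 at day 14 passage 1 and to 1749 ± 305 and 1311 ± 111 at day 14 passage 2. At day 90 it summed to 1408 ± 321 and 1052 ± 155 in passage 1 and to 2214 ± 338 and 1675 ± 142 in passage 2. Sums were not tested.

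Whether the effect of IR differed between days or passages was tested with 4 interaction terms, and edgeR called none of the 37 genes in any. For the day in passage 1, 1 of the 37 had an unadjusted p under 0.05, beside 8.11% of all genes, of which edgeR called 0.0189% after adjustment. It was Serp1, with an interaction of -0.84 on the log2 scale (SE 0.21, adjusted p = 0.214, edgeR). DESeq2 called Serp1 there, as did edgeR without the 3 libraries of deviating Gm42418 share. Atf6 had 0.57 (SE 0.30, adjusted p = 0.672) and Psat1 -0.78 (SE 0.50, adjusted p = 0.752). For the day in passage 2, 3 of the 37 had an unadjusted p under 0.05, beside 5.14% of all genes, and 0.00947% of all genes were called. The 3 were Eif2ak3 (1.03, SE 0.39), Manf (0.95, SE 0.37) and Dnajc3 (0.43, SE 0.18), each with an adjusted p of 0.859, and DESeq2 called 0.

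For the passage at day 14, 1 of the 37 had an unadjusted p under 0.05, beside 6.9% of all genes, with 0% of all genes called and 0 genes of the list by DESeq2. It was Creld2, with -0.89 (SE 0.37, adjusted p = 0.614). Phgdh had 1.03 (SE 0.51, adjusted p = 0.737) and Ddit4 -0.74 (SE 0.40, adjusted p = 0.780). For the passage at day 90 there was again 1 at an unadjusted p under 0.05, beside 3.85% of all genes, with 0% of all genes called and 0 of the list by DESeq2. It was Serp1, with 0.49 (SE 0.20). Eif2ak3 had 0.77 (SE 0.38) and Hyou1 0.78 (SE 0.39), all 3 with an adjusted p of 1.00. So the calls made in 1 comparison and missed in another were not shown to differ between them.

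In sham cultures the family medians of passage 2 against passage 1 lay on opposite sides of 0, with no gene called. Passage 2 was compared with passage 1 in the sham libraries, and passage 2 is grown from cells of passage 1, so the 2 are not independent cultures. At day 14 the median log2 fold change was 0.44 in the Atf4 family (11 genes above 0 and 2 below), -0.15 in the ER family and 0.00 over all genes. At day 90 it was 0.74 (10 above and 3 below), -0.25 (4 above and 16 below) and -0.02. Neither time gave a call with edgeR or DESeq2 among the 37 genes, beside 1.18% of all genes called at day 14 (0.218% higher and 0.966% lower) and 1.36% at day 90 (0.445% higher and 0.918% lower), and 8 and 10 of the 37 had an unadjusted p under 0.05, beside 11.4% and 14% of all genes.

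At day 14 the smallest p in the Atf4 family were those of Atf5, Psat1 and Slc7a5, all higher in each passage 2 library than in any passage 1 library. Atf5 had 51.99, 72.7 and 27.2 CPM in passage 1 and 74.5, 120.5 and 131 in passage 2, which is 1.11 on the log2 scale (SE 0.43, adjusted p = 0.284, edgeR). Psat1 and Slc7a5 had log2 fold changes of 0.84 (SE 0.35) and 1.29 (SE 0.57), and 1 passage 1 library held 1 count of Slc7a5. In the ER family Herpud1, which takes part in ER degradation, had 0.64 (SE 0.29), Dnajb9, a co-chaperone that restrains IRE1, 0.65 (SE 0.29), and Sel1l -0.31 (SE 0.16). The sensors Eif2ak3, Atf6 and Ern1 had -0.73 (SE 0.28, adjusted p = 0.288), -0.47 (SE 0.22) and -0.08 (SE 0.40). Of the 37 genes 4 did not overlap upwards, beside 8.30% of all genes, and 4 downwards, beside 8.66%.

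At day 90 Atf4 itself had the smallest p. It had 428, 992 and 592 CPM in passage 1 and 1109.5, 1035 and 1535 in passage 2, which is 0.87 on the log2 scale (SE 0.28, adjusted p = 0.147, edgeR), and every passage 2 library was above every passage 1 library. Trib3 and Atf5 had log2 fold changes of 1.16 (SE 0.45) and 1.05 (SE 0.41), with overlapping groups. Without sham replicate 2 of passage 1, which had the highest Atf4 level of its group, Atf4 and Ddit3 were called. Manf, Dnajc3 and Dnajb11 had -0.79 (SE 0.26, adjusted p = 0.158), -0.36 (SE 0.12) and -0.56 (SE 0.21), and none of them overlapped. Eif2ak3, Ern1 and Atf6 had -0.49 (SE 0.27), 0.46 (SE 0.36) and 0.06 (SE 0.21). Groups that did not overlap were found for 9 of 37 genes downwards, 8 of them among the 20 ER genes, beside 11.9% of all genes, and for 3 upwards, beside 8.99%. The Gm42418 share of the sham libraries was 11.8% to 28.6% in passage 1 and 13.1% to 15.5% in passage 2.

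Between day 14 and day 90 in sham, Ppp1r15a had lower and Serp1 higher levels in both passages, without a call. The 2 days are different cultures, so day cannot be told apart from the age of the mice or the time of culture. In passage 1 Ppp1r15a stood at -1.21 on the log2 scale (SE 0.31, adjusted p = 0.141, edgeR) and in passage 2 at -1.16 (SE 0.30, adjusted p = 0.0837), and Serp1 had 0.52 (SE 0.15, adjusted p = 0.184) and 0.50 (SE 0.14, adjusted p = 0.123). Dnajb9 had -0.65 (SE 0.31, adjusted p = 0.512) and -1.21 (SE 0.29, adjusted p = 0.0641). The day 14 and day 90 libraries of these 3 genes did not overlap in either passage. DESeq2 called Ppp1r15a in passage 1 and 3 genes in passage 2 (Dnajb9, Ppp1r15a and Serp1). With the Gm42418 share as a covariate in edgeR, Ppp1r15a had -1.04 in passage 1 and -0.84 in passage 2 (adjusted p 0.382 and 0.503). Serp1 then had 0.34 and 0.20 (0.473 and 0.729), and Dnajb9 -0.57 and -1.07 (0.684 and 0.359). The share in sham of passage 2 was 28.4%, 25.5% and 22.6% at day 14 and 15.5%, 14.3% and 13.1% at day 90. In passage 1 it was 25.9%, 22.7% and 25.7%, then 28.6%, 15.9% and 11.8%. With edgeR 0% of all genes were called in passage 1 and 0.426% in passage 2, and 3 and 5 of the 37 genes had an unadjusted p under 0.05, beside 9.7% and 13.7% of all genes.

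Of the others with small p in their family, Shmt2 and Psat1 both had 0.56 (SE 0.31 and 0.35) and Hyou1 -0.57 (SE 0.28) in passage 1, where the sensors Atf6, Xbp1 and Eif2ak3 had -0.41 (SE 0.21), 0.30 (SE 0.45) and -0.15 (SE 0.27). In passage 2 Trib3 had 0.78 (SE 0.45), Chac1 0.98 (SE 0.57) and Manf -0.75 (SE 0.27), and Ern1, Xbp1 and Atf6 had 0.41 (SE 0.37), 0.30 (SE 0.45) and 0.13 (SE 0.21). In passage 1, 1 gene did not overlap upwards, beside 8.79% of all genes, and 5 downwards, beside 6.72%. In passage 2 the counts were 2, beside 11.1%, and 6, beside 11.3%.

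Other genes of both pathways were read from 2 lists, of which 56 further ER genes and 46 further genes of the ATF4 and integrated stress response were tested. In the mean effect of IR, 4 further ER genes were higher and 1 lower, and 1 further ATF4 gene was higher and 6 lower, with medians of 0.05 and -0.00 beside 0.00 over all genes. These calls were 8.93% of the further ER genes and 15.2% of the further ATF4 genes, beside 11% of all genes tested, of which 6.09% were higher and 4.91% lower. Vldlr, a lipoprotein receptor, had log2 fold changes of -1.12 in the mean (SE 0.24, adjusted p = 0.00419, edgeR) and -1.90 in day 90 passage 2 (SE 0.42, adjusted p = 0.00979). Its levels there were 35.9, 21.6 and 19.2 CPM in sham and 6.55, 7.10 and 6.89 in IR, with no overlap, and that call was lost without sham 1, IR 2 or IR 3 (adjusted p up to 0.0599). Slc7a1, a transporter of basic amino acids, and Aldh1l2, a mitochondrial folate enzyme, had -0.46 (SE 0.11, adjusted p = 0.00833) and -1.17 (SE 0.28, adjusted p = 0.0109) in the mean. The mean calls of Vldlr, Slc7a1 and Aldh1l2 held under all 32 alternatives.

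Nupr1, a stress-induced nuclear protein, was the 1 further ATF4 gene that rose, with 0.58 (SE 0.18, adjusted p = 0.0362), a call lost with the share of Gm42418 as a covariate (adjusted p = 0.144) and without any one of 14 libraries (adjusted p up to 0.0784). The 14 were sham 2 or 3 or IR 1 or 2 of day 14 passage 1, sham 1 or IR 1 or 2 of day 14 passage 2, sham 1 or 3 or IR 3 of day 90 passage 1, and sham 1 or 3 or IR 2 or 3 of day 90 passage 2. Of the further ER genes, Sec11c, a signal peptidase subunit, had 0.37 (SE 0.10, adjusted p = 0.0160), Edem2, an ER degradation factor, 0.61 (SE 0.18, adjusted p = 0.0286), Stt3b, which adds N-glycans, 0.21 (SE 0.06, adjusted p = 0.0402) and Derl1, a degradation channel protein, -0.25 (SE 0.07, adjusted p = 0.0186). All 4 lost their calls with the share of Gm42418 as a covariate, Derl1 and Stt3b with no filter (adjusted p 0.125 and 0.331), and Stt3b without the 3 libraries of deviating Gm42418 share (0.0581). Edem2 also lost its call (adjusted p up to 0.0631) without sham 1 or IR 2 of day 14 passage 1, sham 2 or IR 3 of day 90 passage 1, or sham 3 or IR 2 of day 90 passage 2. Stt3b lost its call without each of 16 libraries (adjusted p up to 0.0804) and kept it without sham 1 or IR 1 of day 14 passage 1, sham 1 or IR 2 of day 14 passage 2, sham 1 or IR 1 of day 90 passage 1, and sham 2 or IR 1 of day 90 passage 2. In day 90 passage 2 Stt3b was also called (0.44, SE 0.13, adjusted p = 0.0468), and lost its call without each of the 6 libraries in turn (adjusted p up to 0.190) and under 7 other alternatives (0.0543 to 0.343). In sham, passage 2 was higher than passage 1 for Vldlr at day 14 (1.89, SE 0.44, adjusted p = 0.0405) and for Sars1, a tRNA synthetase, at day 90 (0.70, SE 0.15, adjusted p = 0.0196), and Gdf15, a stress hormone, was higher at day 90 than at day 14 in passage 2 (2.36, SE 0.36, adjusted p = 0.00272). Of these, Vldlr lost its call without sham 1 or 3 of passage 1 or sham 2 or 3 of passage 2 (adjusted p up to 0.221), Sars1 without sham 1 or 3 of passage 1 or sham 3 of passage 2 (up to 0.139), and Gdf15 without sham 3 of day 14 (0.0574) and with the share of Gm42418 as a covariate (0.0555). With only the compared groups fitted, Vldlr (adjusted p = 0.0506) and Sars1 (0.0874) lost their calls too.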

How the data were processed

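The 24 files hold raw counts of reads per Ensembl gene that the authors deposited, 1 file for each library. Per the submitters' processing notes GRCm39 and bcl2fastq were used; for the aligner, counter, annotation and strand the sources used here give nothing. Symbols came from GENCODE vM21 names and matched 47224 of 47643 identifiers; 5 lines naming no gene were left out, of which reads on no feature came to 11.5% to 26.5% of all lines summed. CPM were scaled with TMM factors. Tests used edgeR 4.0.16 in R 4.3.3: quasi-likelihood, filterByExpr, 1 mean for each of 8 groups over all 24 libraries, 13 comparisons, two-sided, Benjamini-Hochberg over 10563 genes at 0.05; SE is the log2 fold change divided by the root of F. Limma 3.58.1 supported edgeR, and DESeq2 1.42.0 was an alternative. The fits were tested on simulated data. Overlapping genes came from the same annotation. They are named for the called genes and Ddit3, and other members overlap genes too, among them Atf5 (Nup62 and Il4i1), Shmt2 (Ndufa4l2) and Hsp90b1. Replicates are numbered as in the labels.

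The members and lists were chosen with earlier results of these data known. Values are given for Hspa5, Hsp90b1, Serp1, Xbp1, Atf4, Ddit3, Ddit4, Trib3, Asns and Phgdh, for members called in a comparison of IR, and otherwise for the 3 smallest p (in sham comparisons, in each family); from the further lists up to 3 called genes in each direction are named. Alternatives were other size factors, DESeq2, other filters, a replicate block, the Gm42418 share as a covariate, only the groups compared, each library left out, and, chosen after seeing the data, leaving out the 3 libraries whose Gm42418 share stood apart from their group and removing ribosomal RNA genes.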

Additional observations from a re-analysis of the deposited data

How the results depend on the processing

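With 3 libraries a group and 1151608 to 3189466 counts each, low genes such as Chac1 and Slc7a5 rest on few counts. At day 90 the acinar marker sums, mostly of Pip, were lower in IR, and the Gm42418 share was higher in most IR libraries. The day 14 acinar sums of IR and sham overlapped in both passages. The number of the 37 genes called was 9 for the mean effect of IR, 5 in day 90 passage 2, 1 in day 90 passage 1 and 0 in the other 10 comparisons. Leaving out 1 library gave 5 to 12 for the mean effect, 0 to 9 for day 90 passage 2, 0 to 1 for day 90 passage 1, 0 to 2 for passage at day 90 and 0 to 0 elsewhere. The Gm42418 share as a covariate gave 3, 2 and 0 in those first 3 comparisons. Fitting only the groups compared gave 0 in day 90 passage 2 and 0 in day 90 passage 1. With no filter 7 were called in day 90 passage 1, 1 in day 14 passage 2, 4 and 8 for passage at day 14 and day 90, and 1 and 3 for day in passage 1 and passage 2. DESeq2 called 1 for the interaction with day in passage 1, and 1 and 3 for day in passage 1 and passage 2. Without the 3 libraries of deviating Gm42418 share 10 were called in day 90 passage 2, 2 in day 90 passage 1, 1 for the interaction with day in passage 1 and 2 for day in passage 1. The cause of these shifts was not tested.

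Replicate numbers were not shown to pair the samples, and pairing was not excluded. The correlation of same-numbered deviations ran from -0.18 to 0.38 over single pairs of libraries. Its lowest value in a comparison ran from -0.18 to 0.08 and its highest from 0.12 to 0.38. The replicate block gave 11 calls for the mean effect, adding Atf5 and Slc7a5, 5 and 1 at day 90 in passage 2 and passage 1, and 0 elsewhere. With 1 library left out, log2 fold changes that crossed 0 ran from -0.30 to 0.000509 for Ddit3 in the mean effect (crossing without day 90 passage 1 sham replicate 2), from -0.36 to 0.29 for Ern1 in passage at day 14 (also 0.10), from -0.000938 to 0.15 for Atf6 in passage at day 90, from -0.082 to 0.69 and from -0.092 to 0.58 for Xbp1 in day in passage 1 and passage 2, and from -0.40 to 0.011 for Eif2ak3 in day in passage 1, which was 0.068 with the covariate. Over all genes the calls were 1162 for the mean effect (532 to 1894 under the settings that leave out no single library), 520 (85 to 1461) and 5 (0 to 465) at day 90 in passage 2 and passage 1, 36 (35 to 460) and 2 (0 to 200) at day 14 in passage 1 and passage 2, 125 (122 to 539) and 144 (92 to 704) for passage at day 14 and day 90, and 0 (0 to 223) and 45 (1 to 427) for day in passage 1 and passage 2. With 1 library left out they were 846 to 1774 for the mean effect, 137 to 1194 and 0 to 25 at day 90 in passage 2 and passage 1, 0 to 146 and 0 to 38 at day 14 in passage 1 and passage 2, 20 to 95 and 26 to 109 for passage at day 14 and day 90, and 0 to 15 and 3 to 47 for day in passage 1 and passage 2. For the interactions they were 1 to 23 (2 with all libraries) and 0 to 10 (1) for day in passage 1 and passage 2, and 0 to 24 (0) and 0 to 9 (0) for passage at day 14 and day 90.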
